A study of Drosophila melanogaster with 90 samples.

Results

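Mated females of the inbred Drosophila melanogaster line Tasmania were set against mated females of the lines Beijing, Ithaca, Netherlands and Zimbabwe by RNA sequencing of whole flies. The Tasmania libraries were the 5 crosses of Tasmania females with males of each line, 3 libraries per cross, which gives 15 of the 89 libraries in the count table. They were chosen by their labels and by no measured value. The comparison is with the mean of the other 4 lines, in 50 libraries: 13 of Beijing females, 9 of Ithaca, 13 of Netherlands and 15 of Zimbabwe. A list of 9 further libraries of mated females, fixed in the rule of the comparison, was left out. No library of Ithaca females mated to Zimbabwe males remained, so 24 crosses entered. Libraries of virgin females, 3 of Tasmania and 12 of the other lines, served as a check only.

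The study crossed females of 5 inbred lines, from far-apart populations, with males of each line. Virgins were aged for 3 to 5 days before mating once, and mated females were frozen at 5 to 6 h from the start of mating, with virgins of the same age frozen alongside. Each library pooled 5 to 10 females. Replicates came from separate bottles. Per the study's design text, the line named Zimbabwe was collected in Africa but proved to be a recent migrant. The labels name no introduced allele in any group. Each place of origin is represented by 1 inbred line, so a difference of the Tasmania line cannot be told apart from one of the Tasmania population. In whole flies, fewer cells of a type and less RNA per cell cannot be told apart.

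Inbred lines of 1 species differ in many inherited variants, and the transcripts of a whole female add up gut, fat body, ovary, muscle, nervous system and other tissues. Several of the gene families described here are arranged as neighbouring copies: cytochrome P450s, glutathione S-transferases and UDP-glycosyltransferases, which modify foreign compounds; the Jonah serine proteases and amylases of the gut; and lysozymes. Antimicrobial peptides are made mainly by the fat body under control of the Toll and Imd pathways, and the vitelline membrane is the inner layer of the eggshell, laid down by follicle cells of the ovary.

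Total counts ran from 5759452 to 29237655 in the mated Tasmania libraries and from 4407704 to 38799730 in the other mated libraries used, and 10663 genes were tested. Summed yolk protein and receptor transcripts, which mark adult females, were at 17697 to 46303 CPM (read counts relative to library size) in mated Tasmania females and at 17388 to 58815 CPM in the others. The summed testis markers were at 20.4 to 60.8 CPM and 17.5 to 67.6 CPM. In the virgin check, Tasmania virgin replicate 3 held more of the transcripts that are low in Tasmania, as described with the virgin results. Replicate 2 stood apart in other measures. Its slope of log2 CPM on log2 exon length was 0.284, against 0.653 and 0.607 in replicates 1 and 3. Its summed hemocyte genes were at 933 CPM, against 1559 and 1447 CPM. These slopes ran from 0.249 to 0.675 in mated Tasmania libraries and from 0.0896 to 0.753 in the other mated libraries.

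Of the 10663 genes, 3910 (36.7%) differed between mated Tasmania females and the mean of the other lines at an adjusted p under 0.05, in edgeR's quasi-likelihood test with Benjamini-Hochberg adjustment. Higher in Tasmania were 2211 genes (20.7%), and lower were 1699 (15.9%). Most differences were small: the median size among called genes was 0.38 on the log2 scale, and 627 called genes (5.88%) differed at least 2-fold, 397 higher and 230 lower. At least 8-fold differences were called for 61 higher and 35 lower genes. The median log2 change of all genes was 0.01.

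A mean over lines can be set by 1 line that is itself extreme. A stricter count therefore took genes called with 1 sign against Beijing, Ithaca, Netherlands and Zimbabwe in turn, comparisons that share the Tasmania libraries. There were 728 such genes (6.83%), 401 higher (3.76%) and 327 lower (3.07%). Against single lines, 4429 genes (41.5%) were called against Beijing, 3765 (35.3%) against Ithaca, 3585 (33.6%) against Netherlands and 4013 (37.6%) against Zimbabwe. The same stricter count gave 1268 genes for Beijing, 921 for Ithaca, 551 for Netherlands and 748 for Zimbabwe, so the Tasmania count lay within the range of the other lines. In 80 genes (0.75%) all 15 Tasmania libraries lay outside the range of the 50 others, 39 above (0.366%) and 41 below (0.385%).

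Among the strongest rises of abundant transcripts, CG42825 (Srg2 in the reference annotation) was at a lowest, median and highest value of 79.2, 214 and 387 CPM in Tasmania females. Groups are described by their lowest, median and highest library, in that order, throughout. In the other lines these values were 0.0982, 2.44 and 71.1 CPM. All Tasmania libraries were above all others, with a log2 change of 4.97 ± 0.20 (SE; adjusted p = 5.59e-29). The other lines themselves fell apart, with medians of 29.1 CPM in Beijing, 26.2 in Ithaca, 1.498 in Netherlands and 0.602 in Zimbabwe. CG13947 reached 95.2, 205 and 379 CPM in Tasmania against 6.69, 18.2 and 66.2 CPM elsewhere (log2 change 3.52 ± 0.15, adjusted p = 5.02e-28). Its groups did not overlap either, and Zimbabwe was the highest of the other lines with a median of 45.5 CPM. CG3777 had 40.3, 65.3 and 97.6 CPM in Tasmania and 1.24, 4.10 and 17.0 CPM in the other lines (3.87 ± 0.19, adjusted p = 6.66e-25), again without overlap.

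MtnC, a metallothionein that binds metal ions, was at 15.9, 72.2 and 119 CPM in Tasmania females and at 0.544, 7.94 and 21.8 CPM in the others (3.40 ± 0.16, adjusted p = 6.26e-26). The ranges overlapped, and Zimbabwe was lowest with a median of 1.02 CPM. The larval storage protein gene Lsp1beta had 0.557, 4.67 and 47.2 CPM in Tasmania against 0, 0.687 and 10.3 CPM (3.78 ± 0.30, adjusted p = 2.74e-16), so that Tasmania libraries differed widely among themselves. CG34460 was at 0.429, 6.13 and 25.5 CPM in Tasmania and at 0, 0.248 and 0.705 CPM elsewhere (4.98 ± 0.25, adjusted p = 1.71e-24). The largest rises by the naming rule also held PGRP-SC1a, described with the immune genes, and CG32523, CG13091 and CG14191, with log2 changes of 3.72 ± 0.20, 3.56 ± 0.15 and 3.13 ± 0.19. CG13091 was only slightly above Beijing and Netherlands (log2 changes of 0.75 and 1.17) and far above Ithaca and Zimbabwe (5.38 and 6.94).

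In several of the largest falls, Tasmania libraries were close to 0 for transcripts found in every library of the other lines. GAPsec, which encodes a GTPase-activating protein, was at 0.257, 0.441 and 1.24 CPM in Tasmania females. The other lines had 17.7, 23.2 and 33.1 CPM, and their medians were alike, from 19.98 CPM in Ithaca to 26.5 CPM in Zimbabwe. The groups were far apart (log2 change -5.46 ± 0.18, adjusted p = 2.01e-33). CG43680 was at 0, 0.158 and 0.918 CPM in Tasmania against 5.19, 15.2 and 33.9 CPM (-6.91 ± 0.29, adjusted p = 2.41e-28). The digestive protease gene Jon65Aii was at 0.110, 0.331 and 1.84 CPM in Tasmania against 3.16, 56.1 and 171 CPM in the others (-6.24 ± 0.35, adjusted p = 1.58e-22). For this gene the other lines spread over medians from 4.75 CPM in Ithaca to 114 CPM in Zimbabwe, yet none reached down to a Tasmania library.

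Obp57a, an odorant-binding protein gene, had 0.696, 1.66 and 2.61 CPM in Tasmania females and 4.70, 37.4 and 92.7 CPM in the others (-4.31 ± 0.17, adjusted p = 6.75e-29). CG33109 was at 2.47, 5.97 and 17.6 CPM against 28.8, 74.03 and 157 CPM (-3.61 ± 0.17, adjusted p = 2.70e-26). Neither gene's ranges overlapped. The other large falls by the rule were CG10725 (-4.61 ± 0.26) and CG42714 (-3.64 ± 0.26), both without overlap, and Sr-CIV, which encodes a class C scavenger receptor (-3.81 ± 0.26), TotC and AttD, all of which overlapped. No gene had all Tasmania libraries under 0.5 CPM and at least 2 CPM on average in each other line; CG43680 averaged 0.163 CPM in Tasmania but reached 0.918 CPM in 1 library.

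**Figure D1:**
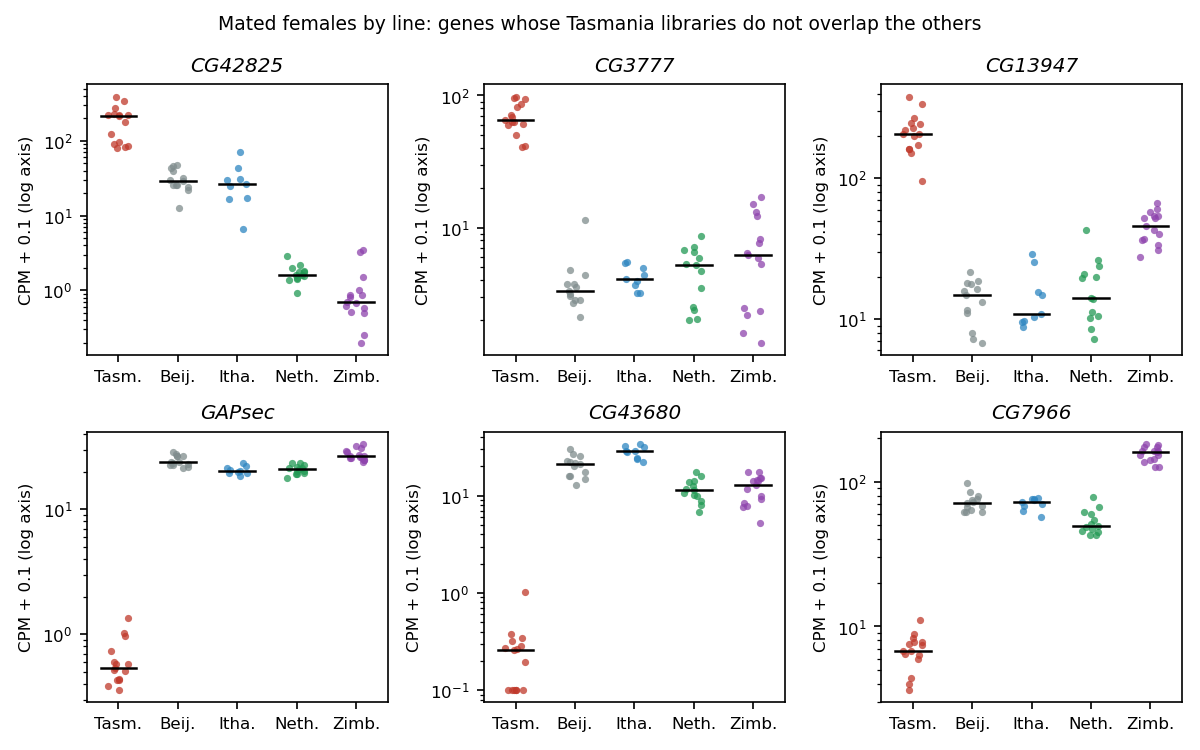
CPM plus 0.1 (log axis) of 6 genes in each library of mated females, by female line (15 Tasmania, 13 Beijing, 9 Ithaca, 13 Netherlands and 15 Zimbabwe libraries; bars are medians). The Tasmania libraries of CG42825, CG3777 and CG13947 lie above every other library, and those of GAPsec, CG43680 and CG7966 below.

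A rule with another limit, at least 2 CPM on average in Tasmania and under 0.2 CPM on average in each other line, held for 3 genes, so the counts under the 2 rules cannot be compared. PH4alphaSG2, a subunit of a prolyl 4-hydroxylase, was at 2.76, 5.27 and 6.78 CPM in Tasmania and at 0, 0.0629 and 0.305 CPM elsewhere. The noncoding RNA roX2, part of the complex that raises transcription of the X chromosome in males, was at 0.337, 1.76 and 5.63 CPM in Tasmania females and at 0, 0 and 0.201 CPM in the other females. CG13059 was at 1.18, 2.14 and 3.80 CPM against 0, 0.068 and 0.503 CPM. None of these overlapped. Since many of the other libraries had no read, the fitted folds depend on the constant added to low counts and are not given; the adjusted p were 1.12e-31 for PH4alphaSG2, 9.73e-19 for roX2 and 1.29e-26 for CG13059. The summed testis markers, given above, were not higher in Tasmania than the range of the other lines. Summed seminal fluid markers were at 245 to 427 CPM in Tasmania and at 246 to 446 CPM in the others. The source of the roX2 reads was not tested, and these sums cannot show it.

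The 80 genes without overlap differed in size of change, and the further ones named here were chosen after their values were seen. rngo, a ubiquitin receptor needed for growth of the ring canals between germline cells, was at 181, 202 and 229 CPM in Tasmania females and at 90.1, 111 and 151 CPM in the others (0.86 ± 0.04, adjusted p = 1.82e-26). Its median was between 108 and 114 CPM in each of the other 4 lines. otk, a receptor-like pseudokinase, had a median of 25.1 CPM in Tasmania against 2.86 CPM (3.05 ± 0.09), and its log2 change was between 2.99 and 3.11 against each line. CG14174 (in the median 45.1 in Tasmania against 8.4 CPM) and CG9634 (147 against 44.1 CPM) did not overlap either, with log2 changes of 2.64 ± 0.07 and 1.67 ± 0.05. On the low side, timeout, a paralogue of the clock gene timeless that acts in chromosome replication, had a median of 22.7 CPM against 53.9 CPM (-1.17 ± 0.06). Acox57D-p, a peroxisomal acyl-CoA oxidase gene, had 13.6 against 85.9 CPM (-2.79 ± 0.13).

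Gene lists differed in how many of their tested members were called and in which direction, as the plot of lists shows beside the share over all genes. Ribosomal proteins, proteasome subunits and sarcomere genes were called less than genes in general: 3 of 88 cytosolic ribosomal protein genes, all higher, 10 of 72 mitochondrial ones, 3 of 29 proteasome genes and 4 of 25 muscle genes. In these lists the medians were 0.09, -0.03, 0.10 and -0.06 on the log2 scale, against 0.01 over all genes. The lists of digestion, detoxification and immunity described next had larger shares of called genes.

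**Figure D2:**
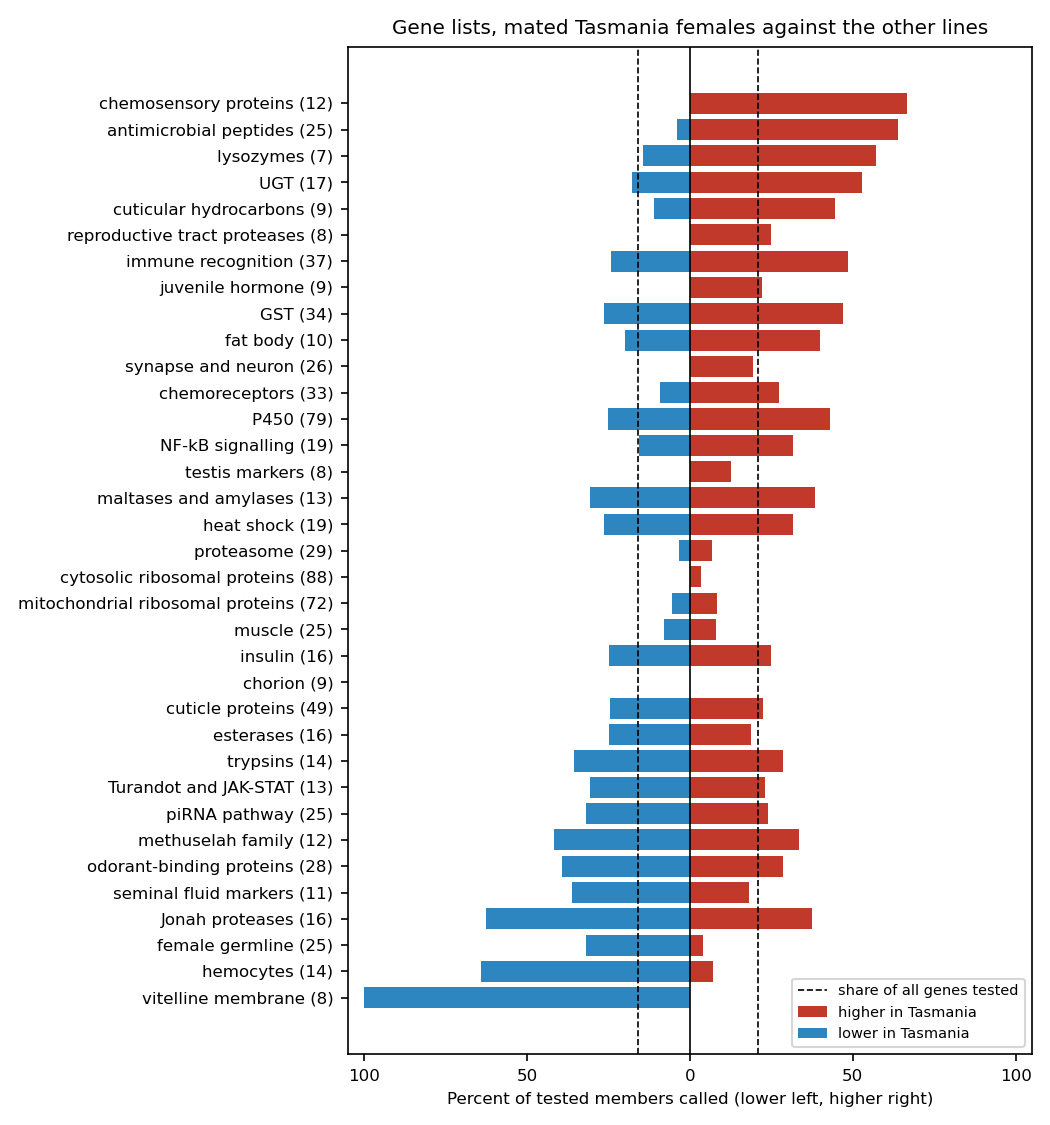
Percent of the tested members of each list called in mated Tasmania females against the other lines, higher to the right and lower to the left (number tested in brackets, 35 lists of at least 7 genes). Dashed lines mark the shares over all 10663 genes, 20.7% higher and 15.9% lower; vitelline membrane genes were lower in 8 of 8 and antimicrobial peptides higher in 16 of 25.

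All 16 Jonah proteases, secreted serine proteases of the midgut, were called: 6 higher and 10 lower in Tasmania, with a median log2 change of -0.89. Against each line singly, 2 were higher and 5 lower. Jon65Aiv, one of the most abundant, was at 541, 929 and 1488 CPM in Tasmania and at 824, 1848 and 6535 CPM in the others (-1.10 ± 0.13, adjusted p = 4.11e-10). The neighbouring Jon65Aiii was at 395, 642 and 1054 CPM against 550, 1195 and 4383 CPM (-1.16 ± 0.12). As near-identical copies these 2 may share reads; summed, they had a log2 change of -1.12 ± 0.13 (adjusted p = 9.71e-11). Jon99Fii rose instead, with 113, 197 and 274 CPM in Tasmania against 23.1, 47.0 and 104.9 CPM, and with Jon99Fi summed in, the log2 change was 1.45 ± 0.14 (adjusted p = 1.31e-13). Jon66Cii, named after its values were seen, was at a median of 2.36 CPM in Tasmania, beside 2.71 CPM in Beijing and 0.141, 0.0484 and 0.0822 CPM in Ithaca, Netherlands and Zimbabwe, so its rise of 3.48 ± 0.30 against the mean was not one against Beijing. Of 14 trypsins and related proteases, 4 were higher and 5 lower, none with 1 sign against every line.

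Amylase is encoded by 2 near-identical genes, Amy-p and Amy-d, and these moved in opposite directions. Amy-d had 135, 326 and 782 CPM in Tasmania females against 5.57, 45.3 and 1045 CPM in the others (1.95 ± 0.12, adjusted p = 1.63e-20). Amy-p had 65.1, 115.3 and 291 CPM against 58.1, 674 and 2015 CPM (-1.96 ± 0.14, adjusted p = 1.21e-17). The sum of both was at 204, 485 and 1074 CPM in Tasmania, against medians of 315 CPM in Beijing, 2257 in Ithaca, 806 in Netherlands and 609 in Zimbabwe. On this sum Tasmania was lower than the mean of the other lines (-0.67 ± 0.12, adjusted p = 6.56e-06), higher than Beijing (0.70) and lower than Ithaca, Netherlands and Zimbabwe (-2.25, -0.77 and -0.37). How reads were divided between the copies was not tested, so the single values are uncertain.

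**Figure D3:**
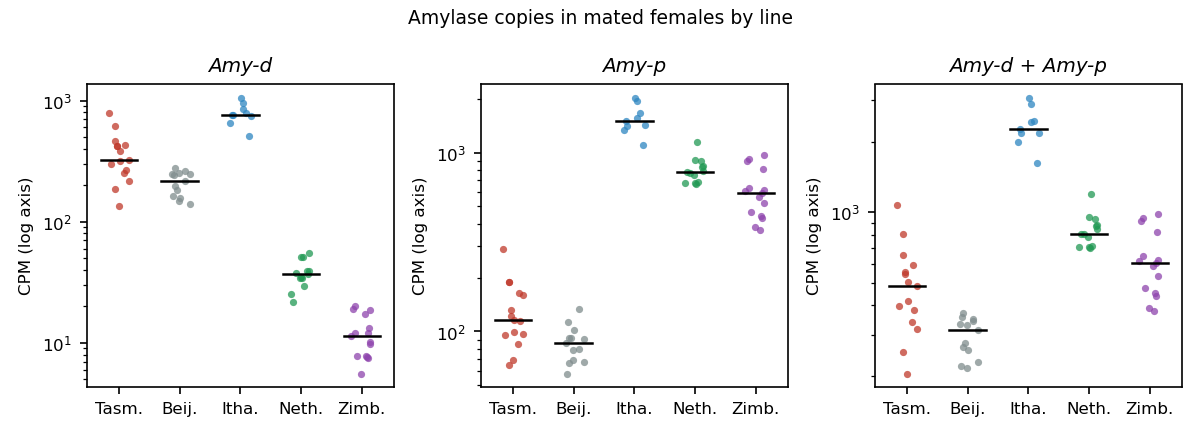
CPM (log axis) of Amy-d, Amy-p and their sum in each library of mated females by female line; bars are medians. The Amy-d medians in Tasmania, Beijing and Ithaca lie above those in Netherlands and Zimbabwe, while the summed median of 485 CPM in Tasmania lies between Beijing at 315 CPM and the other 3 lines.

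Of 7 lysozyme genes, 4 were higher and 1 lower in Tasmania (median 2.49), but 0 had 1 sign against each line. LysD was at 45.0, 99.7 and 214 CPM in Tasmania and at 0.0643, 1.62 and 337 CPM in the others (3.67 ± 0.16, adjusted p = 5.84e-27). The medians by line were 0.609 CPM in Beijing, 196 in Ithaca, 1.01 in Netherlands and 39.2 in Zimbabwe. LysB to LysE are near-identical copies; their sum was 2.47 ± 0.17 higher than the mean of the lines, far above Beijing (7.02) and Netherlands (4.52), not called against Zimbabwe (-0.35, adjusted p = 0.228) and lower than Ithaca (-1.32). The 5 lysosomal alpha-mannosidase genes included 4 that were lower and 0 that were higher; CG9468 had 14.4, 61.9 and 135 CPM in Tasmania against 33.4, 142 and 796 CPM (-1.73 ± 0.20), which was a difference from Ithaca and Netherlands (-3.14 and -3.14) and hardly from Zimbabwe (-0.05). CG9463 of the same list was at a median of 1.23 against 10.5 CPM (-2.58 ± 0.32).

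Among 79 cytochrome P450 genes, 34 were higher and 20 lower, 68.4% called in all, with a median log2 change of 0.16; 10 were higher and 5 lower against each line. Cyp4d20 was at 34.8, 48.4 and 62.1 CPM in Tasmania and at 5.54, 10.8 and 35.6 CPM in the others (2.00 ± 0.07, adjusted p = 5.85e-31). The 2 ranges touched only at their ends. Cyp12a4 and Cyp4d1, named after their values were seen, had medians of 351 and 56.9 CPM in Tasmania against 99.5 and 12.9 CPM (1.80 ± 0.08 and 2.18 ± 0.10), without overlap.

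Cyp6a23 and Cyp6a17 are closely similar neighbours and moved in opposite directions. Cyp6a23 was at 77.0, 121 and 234.9 CPM in Tasmania against 10.01, 19.3 and 119 CPM (2.27 ± 0.09, adjusted p = 1.91e-28), with Beijing the nearest line at a median of 80.02 CPM. Cyp6a17, named after its values were seen, was at a median of 5.85 against 49.3 CPM (-2.84 ± 0.14, adjusted p = 2.38e-25), without overlap. Summed, the pair was at 79.5, 129 and 248 CPM in Tasmania. The medians of the sum were 161 CPM in Beijing, 61.4 in Ithaca, 60.6 in Netherlands and 64.4 in Zimbabwe, which gives 0.79 ± 0.09 against the mean of the lines (adjusted p = 4.32e-11) and a small fall against Beijing (-0.28, adjusted p = 0.0477). As with amylase, the single values of these similar copies are uncertain.

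Of 34 glutathione S-transferase genes, 16 were higher and 9 lower (73.5% called, median 0.18). GstO3 was at 13.6, 17.4 and 29.3 CPM in Tasmania and at 36.7, 57.2 and 160 CPM in the others (-1.80 ± 0.10, adjusted p = 6.05e-22), with no overlap. GstD5 had 3.81, 9.29 and 14.3 CPM in Tasmania against 0, 2.04 and 14.4 CPM (2.33 ± 0.15), but was not above Ithaca, where its median was 10.4 CPM. Of 17 UDP-glycosyltransferase genes, 9 were higher and 3 lower (70.6% called, median 0.29). Ugt37a1 was at 3.07, 11.6 and 28.2 CPM against 0.0838, 1.24 and 11.5 CPM (2.77 ± 0.19, adjusted p = 1.83e-18), and Ugt86Dc at 18.5, 46.2 and 66.9 CPM against 4.11, 10.9 and 34.0 CPM (1.79 ± 0.11). Both were called higher against each line. Carboxylesterases, another family of this kind, had 3 higher and 4 lower of 16, near the share over all genes.

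Of 25 antimicrobial peptide genes, 16 were higher and 1 lower (median log2 change 1.19), and 3 were higher and 1 lower against each line. Of the 4 drosomycin-like genes tested, Drsl4 and Drsl5 were called higher against each line, while Drsl2 had 1.19 ± 0.39 (adjusted p = 0.0122) and Drsl3 did not pass (0.34 ± 0.36, adjusted p = 0.505). Drsl5 was at 38.5, 52.9 and 104 CPM in Tasmania females and at 0, 13.6 and 37.9 CPM in the others (3.09 ± 0.11, adjusted p = 7.96e-32), without overlap and with a median of 0.308 CPM in Netherlands. Drsl4 was at 92.3, 144 and 296 CPM against 7.72, 39.1 and 124 CPM (2.09 ± 0.13, adjusted p = 4.19e-21). The attacin gene AttD went the other way: Tasmania libraries had 0, 0 and 0.169 CPM, against 0, 0.876 and 55.8 CPM in the others (adjusted p = 4.42e-07; the fold is not given because most Tasmania libraries had no read). Medians of AttD ran from 0.265 CPM in Ithaca to 4.23 CPM in Beijing, and some libraries of the other lines had no read either.

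The inducible peptides varied strongly within Tasmania. Def, which encodes defensin, was at 78.8, 33.6 and 9.50 CPM in the 3 libraries of Tasmania females mated to Tasmania males and at 199, 52.0 and 8.98 CPM with Zimbabwe males. In the 9 Tasmania libraries with other males it was at 2.82 to 13.98 CPM, and the other lines had 3.59, 11.4 and 61.7 CPM. Its mean difference did not pass (0.37, adjusted p = 0.178). CecA1, a cecropin gene named after its values were seen, reached 107, 17.5 and 5.74 CPM with Tasmania males and 144, 32.7 and 10.7 CPM with Zimbabwe males, against 0, 0.126 and 38.7 CPM in the other lines (adjusted p = 3.38e-08 against their mean). It was not called against each line: the median was 1.04 CPM in Beijing, 2.09 in Ithaca, 0.0484 in Netherlands and 0 in Zimbabwe, and the log2 change was 2.01 against Beijing and 1.22 against Ithaca. The attacin gene AttB had 2.51 ± 0.36 (adjusted p = 7.98e-08) and was called against each line. The metchnikowin gene Mtk had 2.50 ± 0.38 but was not called against each line, with 0.83 against Beijing. It was at 18.3, 106 and 475 CPM in Tasmania against 0.681, 22.2 and 665 CPM in the others. With the 2 crosses with Tasmania and Zimbabwe males left out of the Tasmania mean, 8 peptide genes were higher and 2 lower with a median of 0.65. Over all 10663 genes this setting called 1657 higher and 1294 lower, against 2211 and 1699 with all crosses. In this setting AttB did not pass (0.99 ± 0.46, adjusted p = 0.105), while CecA1 (adjusted p = 0.00479), Mtk (2.14), Drsl4 (2.07) and Drsl5 (3.09) still did. The 3 libraries within each of these 2 crosses differed widely among themselves. In virgin Tasmania females, which had no mate, 16 of the 25 peptide genes were called higher and 1 lower against the virgins of the other lines. Over all 10663 genes the virgin comparison called 1065 higher and 513 lower. The summed fat body markers were at 1189 to 2569 CPM in Tasmania and 840 to 2401 CPM in the others; their part in the peptide levels was not tested.

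**Figure D4:**
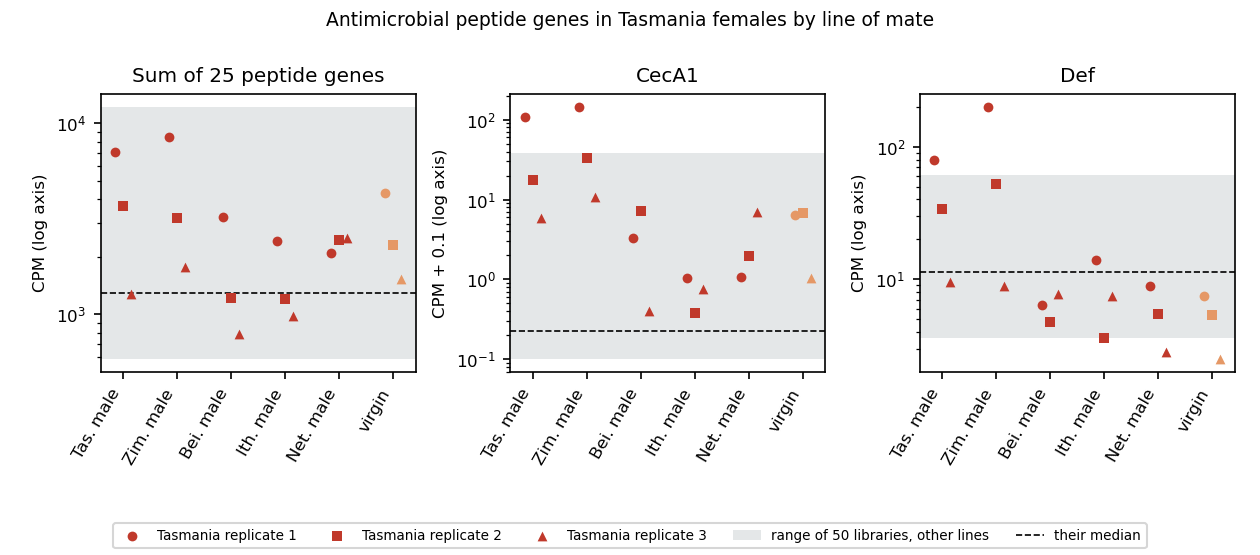
CPM (log axis; 0.1 added for CecA1) of 25 antimicrobial peptide genes summed, of CecA1 and of Def in each Tasmania library, by line of the male and in virgins (symbols give the replicate number). Grey bands span the 50 libraries of the other lines with their median dashed; replicates 1 of the crosses with Tasmania and Zimbabwe males lie above the band for CecA1 and Def.

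A test of the line of the male within Tasmania females called 29 genes (0.272%), among them Tep1, Def, CecA1, CecA2, CecB, CecC, AttA and AttB, named after their values were seen. Tep1, which encodes a complement-like protein, averaged 25.1 CPM with Zimbabwe males, 8.26 with Tasmania males and 0.206 to 0.288 CPM with the others, beside at most 0.853 CPM in any library of the other lines. The 29 genes became 0, 1 and 19 when replicate 1, 2 or 3 was left out. Then 266, 528 and 555 genes had an unadjusted p under 0.05 in edgeR, near or below the share of 0.05 met where no gene differs. With all replicates kept, 607 of the 10663 genes had an unadjusted p under 0.05. It was 740 with the replicate block, and 759 of 10639 genes with mated libraries alone, where 31 genes were called. These 3 counts lie above that share. No other tool was run on this test.

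Of 37 genes of immune recognition, 18 were higher and 9 lower (73.0% called, median 0.13). Without the crosses with Tasmania and Zimbabwe males, 12 were higher and 7 lower, with a median of 0.03. That setting called 1657 of all 10663 genes higher and 1294 lower. The amidase genes PGRP-SC1a and PGRP-SC1b, whose products break down peptidoglycan and dampen Imd signalling, were both higher. PGRP-SC1a was at 5.62, 19.7 and 53.1 CPM in Tasmania and at 0.0681, 0.650 and 10.3 CPM in the others (4.37 ± 0.20, adjusted p = 8.14e-27), PGRP-SC1b at 1.98, 6.30 and 15.7 CPM against 0.632, 1.35 and 3.03 CPM (2.15 ± 0.18). They are near-identical; their sum was 3.34 ± 0.17 higher, and 2.11 to 4.01 higher against each line. pirk, an inhibitor of Imd signalling, was at 14.5, 26.8 and 57.8 CPM against 5.02, 9.28 and 33.6 CPM (1.32 ± 0.12), but not above Beijing (0.16). SPE, the protease that activates the Toll ligand, was at 75.6, 141 and 246 CPM against 41.6, 63.9 and 158 CPM (0.99 ± 0.10) and was called against each line. Over the Toll and Imd core, 6 of 19 genes were higher and 3 lower (47.4% called, against 36.7% over all genes), with a median of 0.02.

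Hemocyte genes were mostly lower: 9 of 14 fell and 1 rose, with a median log2 change of -0.33. The summed list was at 917 to 1597 CPM in Tasmania and 961 to 2172 CPM in the others. The phagocytosis receptor genes nimC1 and eater were among those lower against each line, nimC1 at 8.62, 13.1 and 17.1 CPM against 11.3, 19.4 and 45.0 CPM (-0.82 ± 0.09, adjusted p = 1.42e-10) and eater at 3.13, 5.73 and 10.2 CPM against 5.78, 9.45 and 16.0 CPM (-0.69 ± 0.10, adjusted p = 2.22e-07). Both overlapped between groups. Of 5 Turandot genes, stress peptides induced through JAK-STAT signalling, 4 were lower, while TotB, at a mean log2 CPM of -1.40, was not called. TotC was at 1.78, 9.85 and 114 CPM in Tasmania against 17.0, 127 and 947 CPM (-3.64 ± 0.48, adjusted p = 9.04e-09), and TotA was at 5.35, 17.0 and 265 CPM against 33.8, 248 and 1451 CPM (-3.17 ± 0.38). TotM and TotX had -1.51 ± 0.43 and -0.75 ± 0.26. In the whole list with JAK-STAT components, 3 of 13 were higher and 4 lower. With Tasmania males alone, TotC (-2.23, adjusted p = 0.0943) and TotA (-1.71, adjusted p = 0.107) kept their direction but did not pass. In virgins TotC and TotA were lower (-3.13 and -2.46, both called). TotM and TotX were not lower there (0.39 and 0.58, neither called).

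All 8 vitelline membrane genes were lower in Tasmania, with a median log2 change of -1.09; 2 of them were lower against each line. Vm26Ac was at 0.274, 2.36 and 11.5 CPM in Tasmania and at 2.55, 13.3 and 100 CPM in the others (-2.16 ± 0.30, adjusted p = 2.91e-08). psd, named after its values were seen, was at a median of 20.9 against 67.6 CPM (-1.33 ± 0.24). Vm32E was at 3.43, 17.0 and 68.5 CPM against 9.48, 101 and 300 CPM (-1.76 ± 0.28), hardly different from Netherlands (-0.28). Summed, the list was at 498, 1125 and 3295 CPM in Tasmania against 855, 2807 and 8645 CPM, ranges that overlap widely. The chorion genes of the outer eggshell had a median of -0.29, and 0 of 9 were called (at 1764 to 20197 CPM summed in Tasmania and 254 to 38586 CPM in the others). Of the 4 yolk genes, 0 were called as well, with a median of -0.07.

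Among 25 female germline genes, 8 were lower and 1 higher (median -0.10). With 36% called, the list was near the 36.7% over all genes. exu, which acts in localising messenger RNA in the egg, was at 132, 163 and 256 CPM in Tasmania against 169, 268 and 428 CPM (-0.71 ± 0.09, adjusted p = 4.60e-09). nos, the gene of the translational repressor Nanos, was at 52.7, 74.7 and 117 CPM against 52.0, 114 and 175 CPM (-0.59 ± 0.10, adjusted p = 2.08e-06). Both were lower against each line, and Hsp26, a small heat shock gene, was too (366, 529 and 764 CPM against 491, 832 and 1289.9 CPM; -0.65 ± 0.09). The 25 genes of the piRNA pathway, which silences transposons, had 6 higher and 8 lower members (56% called). In this list vret, a Tudor protein gene, stood out with 36.8, 41.6 and 48.7 CPM in Tasmania against 17.7, 23.3 and 32.1 CPM (0.82 ± 0.05, adjusted p = 1.23e-20), without overlap, while rhi had 0.43 ± 0.06 and hardly differed from Beijing (-0.05).

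Among genes of the chemical senses, of 12 chemosensory protein genes 8 were higher and 0 lower (median 0.41), and of 28 odorant-binding protein genes 8 were higher and 11 lower. Obp56d was at 95.4, 122 and 196 CPM in Tasmania against 87.3, 239 and 479 CPM (-0.76 ± 0.10), with Netherlands close at a median of 129 CPM. Among 33 odorant, gustatory and ionotropic receptor genes 9 were higher and 3 lower (36.4% called, the share over all genes being 36.7%). The ionotropic receptor gene Ir76a was at 5.80, 8.25 and 11.5 CPM in Tasmania and 11.7 CPM in the median in Ithaca, but at medians of 0.459, 0.431 and 0.480 CPM in Beijing, Netherlands and Zimbabwe (3.10 ± 0.10, adjusted p = 1.50e-32). The odorant receptor gene Or43b was called against each line, with 9.20, 12.1 and 21.3 CPM against 2.91, 8.92 and 16.1 CPM (0.78 ± 0.08).

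In the remaining lists single genes stood out. The gene to (takeout), whose secreted product is linked to feeding and the circadian clock, was at 33.02, 125 and 242 CPM in Tasmania and at 18.5, 29.5 and 46.9 CPM in the others (1.99 ± 0.12, adjusted p = 4.28e-21), with medians from 27.2 to 34.7 CPM in every other line. Lsp2, a storage protein gene of the fat body, was at 5.75, 137 and 448 CPM against 0.255, 30.5 and 568 CPM (3.11 ± 0.30), mostly a difference from Netherlands with its median of 0.622 CPM. jhamt, a methyltransferase gene of juvenile hormone synthesis, was at 4.42, 9.13 and 33.5 CPM against 1.35, 3.32 and 12.9 CPM (log2 change 1.5 ± 0.16, adjusted p = 1.14e-11) and called against each line, while 1 other of the 9 juvenile hormone genes was called. The cuticle gene Pcp was higher (1.78 ± 0.14) and Cpr67Fb lower (-1.69 ± 0.17), in a list with 11 higher and 12 lower of 49 (46.9% called). Methuselah-family receptors had 4 higher and 5 lower of 12: mth, the founding member known for its effect on life span, was at 32.2, 36.3 and 41.3 CPM against 7.48, 18.5 and 39.8 CPM (0.77 ± 0.06), and mthl2 was lower against each line (-1.22 ± 0.15). Lnk, an adaptor of insulin signalling, was lower by a small and even amount, between -0.32 and -0.39 against each line. Of 26 neuronal genes 5 were called, all higher, among them the glutamate transporter gene Eaat1 (0.39 ± 0.07). That is 19.2% of the list, beside 20.7% of all genes called higher.

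Called genes lay on every chromosome arm, at 33.7% of tested genes on X, 39.4% on 2L, 39.2% on 2R, 36.8% on 3L and 35.6% on 3R, and at 18.3% of 82 genes on 4. Of the 721 genes called against each line that have a place in the reference annotation (BDGP6), 114 (15.8%) had a tested neighbour called with the same sign. The share to be met if position played no part was not worked out, so this count cannot show whether such genes cluster. The 9 runs of at least 3 genes reached 4 genes at most. In 1 of these on 3L, the genes lower together were these: CG18417 was at 0.994, 1.55 and 2.33 CPM in Tasmania against 3.59, 12.6 and 30.6 CPM (-2.86 ± 0.16, adjusted p = 2.88e-22), CG8560 had -1.40 ± 0.16, CG8562 had -1.01 ± 0.12, and CG32379 had 0, 0 and 0.324 CPM against 0, 1.64 and 4.09 CPM. In another run on 3L, CG6462 (-1.93 ± 0.24) lay beside Jon65Aiv, Jon65Aiii and Jon65Aii, all lower. A run on 2R held CR43417, CG34459, CG34460 and CR43650, all higher. Without strand, reads of overlapping neighbours cannot be told apart.

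The virgin libraries tested the same line difference in females that had not mated and shared no library with the comparison above. Of the 10663 genes, 1578 (14.8%) were called between virgin Tasmania females and the mean of the virgins of the other lines. In both comparisons 1390 genes were called, which is 35.5% of the calls in mated and 88.1% of the calls in virgin females, and 1389 of them had the same sign. Of the 728 genes called against each line in mated females, 721 had the same sign in virgins and 530 (72.8%) were called there. Among genes named above, the log2 change was 4.97 in mated and 4.70 in virgin females for CG42825, and 3.09 in mated and 3.19 in virgin females for Drsl5. For Vm26Ac it was -2.16 in mated and -1.91 in virgin females (adjusted p = 0.0269 in virgins), for Vm32E -1.76 in mated and -1.49 in virgin females (adjusted p = 0.0921 in virgins), and of the vitelline membrane list 1 of 8 was called in virgins. The log2 change of jhamt was 1.5 in mated females and 0.38 in virgins, where it did not pass (adjusted p = 0.589), and the difference between the 2 did not pass either (1.12, adjusted p = 0.806).

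These values rest on 3 Tasmania virgin libraries, of which replicate 3 held more of the transcripts that mark Tasmania by their lowness. The sum of 16 genes that were at least 4-fold lower in mated Tasmania females, without overlap and at a mean log2 CPM above 3, was 169 CPM in virgin replicate 3, against 69.2 and 61.8 CPM in virgin replicates 1 and 2. It was 42.9 to 89.3 CPM in mated Tasmania libraries and 539 to 860 CPM in mated libraries of the other lines. CG11313 was at 45.0 CPM in virgin replicate 3, at 3.85 and 0.465 CPM in replicates 1 and 2, and at 176 to 248 CPM in Zimbabwe virgins. Without that library 1096 genes were called in virgins, and of the 728, 722 had the same sign and 444 (61.0%) were called. The log2 change of GAPsec was -5.46 in mated females; in virgins it was -5.49 without that library and -3.30 with it.

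**Figure D5:**
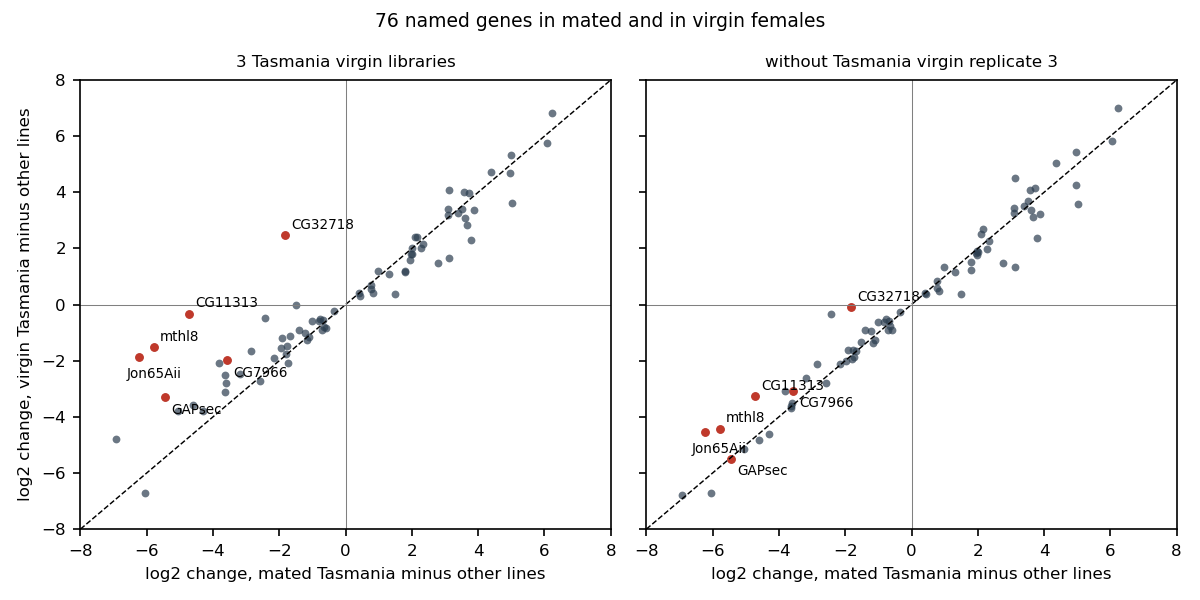
Log2 change of Tasmania against the other lines in mated females (horizontal axis) and in virgins (vertical axis) for 76 genes named by the rule, with all 3 Tasmania virgin libraries (left) and without replicate 3 (right); the dashed line marks equal changes. The labelled genes, among them GAPsec at -5.46 in mated and -3.30 in virgin females, lie nearer to the line on the right.

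The difference between the Tasmania contrast in mated and in virgin females was tested directly. In this test 13 genes passed (0.122%), all with a lower difference in mated than in virgin females. An unadjusted p under 0.05 was met by 564 of the 10663 genes, close to the share of 0.05 met where no gene differs. This count depended on single virgin libraries. It was 1085 of 10661 genes without Tasmania virgin replicate 2, well above that share, and 16 genes passed. Without replicate 1 it was 399 of 10660, and without replicate 3 it was 425 of 10659. How many genes differ is therefore not settled by these counts. Without Tasmania virgin replicate 3, 1 gene passed, CG4998, with a difference of -2.10 ± 0.39 (adjusted p = 0.0189). CG4998 was at 0.171, 0.401 and 1.56 CPM in mated Tasmania females and at 2.94, 1.01 and 1.40 CPM in virgin Tasmania replicates 1 to 3. Mated females of the other lines had 0.765, 2.10 and 9.26 CPM. Their virgins ran from 0.718 to 5.60 CPM, a range that holds all 3 Tasmania virgins.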

How the data were processed

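RNA of whole females was sequenced. The submitters' processing notes name HTSeq, TopHat2, Trimmomatic and FastQC, and the build dm3; versions, annotation and strand setting are not given in the sources used here, so reads of overlapping or antisense genes cannot be told apart. The deposited table gives unnormalized read counts of each gene in 89 of the 90 labelled samples. Ithaca x Zimbabwe replicate 2 was not analysed here. Of 14522 rows, 8 are named by a number and were left out (0.0444% to 0.263% of counts).

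With R 4.3.3 and edgeR 4.0.16, 80 libraries were fitted with 1 mean per cross or virgin group (29 groups), after filterByExpr and TMM scaling (factors 0.854 to 1.11). The comparison is the mean of 5 Tasmania cross means minus the mean of the 4 other lines' means; the SE was taken from the log2 change and the F statistic. CPM uses TMM library sizes. DESeq2 1.42.0 was an alternative. On simulated counts for the comparison of mated females (10663 genes), 96% of 100 genes changed 1 log2 unit and 77% of 100 changed by 0.5 were called, and 2.81% of calls were unchanged genes. The simulation had independent libraries, no other changed genes and no differences among the other lines. Its shares therefore need not hold for the data.

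Replicates of 1 group had a chi-square per degree of freedom of at least 12.7 (73 pairs, genes with at least 20 counts). Pooled over these genes, replicates thus differed far more than by sampling noise. What limits the precision was not tested gene by gene, and genes with few reads are not covered. Per the study's design text, replicates came from separate bottles and were mated at the same time. Deviations from group means of same-numbered Tasmania and other libraries correlated at 0.27, 0.44 and 0.58 for numbers 1 to 3. The numbers were therefore taken to pair the samples, although number 1 of Tasmania correlated at 0.39 with number 2 of the other lines. Among mated Tasmania libraries the summed fat body markers were at 2013 to 2569 CPM in replicate 3 and at 1189 to 1739 CPM in replicates 1 and 2. The main fit took libraries as independent, so its SE can be too small where equal numbers within a line vary together. Its adjusted p can then be too low. The replicate block is 1 effect shared by all lines and does not cover such variation within a line.

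The naming rule (99 genes) takes the 10 largest rises and 10 largest falls called against each line and, from every list, at most 2 called genes with the smallest p, in both cases at mean log2 CPM 1 or above. It adds genes nearly silent on 1 side, up to 8 genes whose difference changed with mating, and the 2 longest runs of neighbours. The members and lists were chosen with earlier results of these data known. Faults in several list patterns were corrected after values were seen. Names and gene order come from BDGP6, in which 14154 symbols matched 1 gene; no coordinates are given, as the build differs.
Alternatives were another normalization, no filter, DESeq2's test, the replicate block, other sets of libraries, lines or males, and summed copies.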

Additional observations from a re-analysis of the deposited data

Results flagged for a closer look

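Of the 13 genes whose Tasmania difference changed between mated and virgin females, the 8 with the smallest p are singled out by that test (log2 difference in mated minus in virgin females, edgeR's quasi-likelihood test). They were Jon65Aii (-4.38, adjusted p = 9.25e-07), CG11313 (-4.40), CG32718 (-4.32), mthl8 (-4.27), GAPsec (-2.16), CG4998 (-1.93), CG7966 (-1.61) and Hsc70-2 (-1.50, adjusted p = 0.000983). In Tasmania virgin replicates 1 to 3, Jon65Aii was at 1.75, 0.465 and 18.3 CPM, Hsc70-2 at 3.29, 2.56 and 15.6 CPM, mthl8 at 0.280, 0.0775 and 3.34 CPM, CG32718 at 1.40, 0.310 and 12.9 CPM and CG7966 at 8.69, 8.84 and 37.7 CPM. CG32718 was abundant in Zimbabwe alone among the other lines, with a median of 93.0 CPM in mated females. Without Tasmania virgin replicate 3, CG4998 kept its call and the other 7 had an adjusted p of 1.00; the cause was not tested.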

How the results depend on the processing

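The 3910 genes called against the mean of the lines became 3725 with all 74 mated libraries, 3880 with mated libraries alone, 3960 without the filter, 3927 with DESeq2's size factors, 4061 with DESeq2's own test and 5173 with each library's slope on gene length as a covariate. Left out singly, mated Tasmania libraries gave 3624 to 3943, and 679 to 729 against each line. The replicate block, with the numbers pairing samples, gave 4261, 798, 1793, 18 and 29 for the 5 counts of calls. It changed no call among the 91 named genes that were followed through the alternatives. Not every gene named in the text was among these. Crosses with Beijing, Ithaca, Netherlands, Tasmania or Zimbabwe males alone gave 1107, 1011, 1008, 2098 and 959 genes against the mean and 134, 139, 133, 312 and 195 against each line, with fewer samples by construction. Without Beijing, 1195 genes were called against each remaining line. Without replicate 1, 2 or 3, counts were 2923 to 3263 against the mean, 485 to 544 against each line, 808 to 996 in virgins, 1 to 8 for mated minus virgin and 0 to 19 for the line of the male. Leaving out single Tasmania virgin libraries gave 941 (without replicate 1) to 1318 genes in virgins and 1 (without replicate 3) to 16 for mated minus virgin.

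CG32718 turned to 0.29 (adjusted p = 0.681) without Zimbabwe, and with Ithaca males alone CecA1 turned to -0.10 (adjusted p = 0.995) and AttB to -0.58 (adjusted p = 0.811); the cause was not tested. With 1 male line alone, 8 (Tasmania males) to 16 (Zimbabwe males) of the named genes kept their direction but not their call, among them jhamt 0.77 (adjusted p = 0.176), psd -0.75 (0.417) and Vm32E -1.04 (0.316) with Beijing males, pirk 0.55 (0.250) with Ithaca males, and Lnk -0.16 (0.259) and rhi 0.19 (0.387) with Tasmania males. With copies summed, Amy-d turned to -0.67 and Cyp6a17 to 0.79. In 215 genes at least 1 mated cross had no read, which leaves its log mean undefined, so that the test can miss a difference: 88 of them were called with 1 mean per cross and 106 with 1 mean per line, an alternative chosen after seeing the data, as were leaving out single virgin libraries, the 2 crosses with high peptides and summing copies. With 1 mean per line 4036 and 749 genes were called. Calls were also lost by mthl8 without replicate 2, CG32718 without replicate 1 or 2, and Cpr67Fb without replicate 3; the cause was not tested.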
